A study of Rattus with 6 samples.

Results

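The 5′ end of each gene was examined in an exon-level RNA sequencing table of RC-4B/C cells, a line established from a rat pituitary adenoma. For every gene with 5 or more exons in the table, the exons were ordered along the strand and the first was kept, which gave 8209 first listed exons among 118147 listed exons of 12801 genes. The other 4592 genes had fewer listed exons and gave no member. Of the 8209, 7223 could be tested, because both the first exon and the median of the gene's other exons averaged at least 0.5 reads per 1000000 (RPM). The remaining 986 first exons were under that level and are not described further.

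There were 3 libraries of cells given acetylsalicylic acid (aspirin, ASA) and 3 of control cells given dimethyl sulfoxide (DMSO), all of the same line and all polyadenylated RNA, and the question was how aspirin alters their transcripts. The labels state neither the dose nor the duration of treatment, and nothing in them ties a library to its own culture. The p-values below thus reflect how far these libraries vary, which may be technical. The series design also names the GH3 line, which was not analysed here.

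Transcription of a mammalian gene often begins at more than one promoter. Each promoter supplies its own first exon, which is then spliced to exons that all transcripts of the gene share, so a switch between promoters can leave the bulk of the messenger RNA in place while the 5′ exon rises or falls. Alternative first exons can change the N-terminus of the protein, and in the pituitary they are known from genes such as the estrogen receptor gene Esr1.

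The table set limits on what can be read as a start site. Its row names carry an exon numbering, and 6964 of the 8209 first listed exons (84.8%) were numbered 1, 823 were numbered 2 and 422 were numbered 3 or higher. In 4909 genes every numbered exon was listed, and in 94.99% of those the summed length was a multiple of 3, so the rows cover coding length. In genes whose first listed exon is numbered 2 or higher, earlier numbered exons are not listed, so the first listed exon need not be the first coding stretch of the gene model. Untranslated first exons and the start site itself were not measured. Every row had over 10 reads in at least 4 of the 6 libraries, so a first exon used in the libraries of only 1 treatment cannot be in the table. No first exon overlapped another exon of its own gene.

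First listed exons had a median length of 117 bases against 123 for the other exons of the same genes. The median distance from the first to the second listed exon was 2819 bases, and the typical distance between later exons was 1290.5 bases. First exons held between 6.50% and 7.31% of the reads in each library. Reads in listed exons numbered 66492446 in ASA replicate 2 and between 82189700 and 94486062 in the other 5 libraries. The lactotroph genes Prl, Pou1f1 and Chgb were present in all 6 libraries, whereas the corticotroph hormone gene Pomc did not exceed 2.62 reads per kilobase per 1000000 reads (RPKM).

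A first-exon index was computed in each library as the log2 level of the first exon minus the median log2 level of the gene's other exons, on log2(RPKM + 0.1), so that a change of the whole gene cancels. In DMSO cells the index had a median of -0.11 with quartiles of -0.53 and 0.34, and 6002 of the 7223 first exons (83.1%) lay within 1 log2 unit of the rest of their gene. An index under -2 was seen in 135 genes (1.87%), and an index over 2 in 132 (1.83%). Shorter first exons had the higher index: the median was 0.55 over the 1740 first exons shorter than 72 bases and -0.56 over the 1821 of 191 bases or more. First exons numbered 1 had a median index of -0.10 (n = 6300) and those with a higher number -0.20 (n = 923). Genes with exactly 5 listed exons (n = 687) had a median DMSO index of -0.065 and a median ASA minus DMSO difference of -0.0040, and the genes with exactly 4 that fell outside the rule (n = 717) had 0.00012 and 0.0017.

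One aspirin library stood apart from the other 5. In ASA replicate 2 the index departed from the DMSO mean by more than 1 log2 unit in 28.8% of first exons, against 0.775% in ASA replicate 1, 1.34% in ASA replicate 3 and 0.208% to 0.249% in the DMSO libraries, each DMSO library being set against the other 2. The scaled median absolute deviation was 0.929 in ASA replicate 2 and between 0.162 and 0.219 elsewhere. In ASA replicate 2 30 first exons had no read, against 0 to 2 in the other libraries. The irregularity was not limited to the 5′ end, since the same deviation was 0.782 at second exons, 0.648 at middle exons and 0.783 at last exons of that library. Results are therefore given with and without ASA replicate 2.

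**Figure D1:**
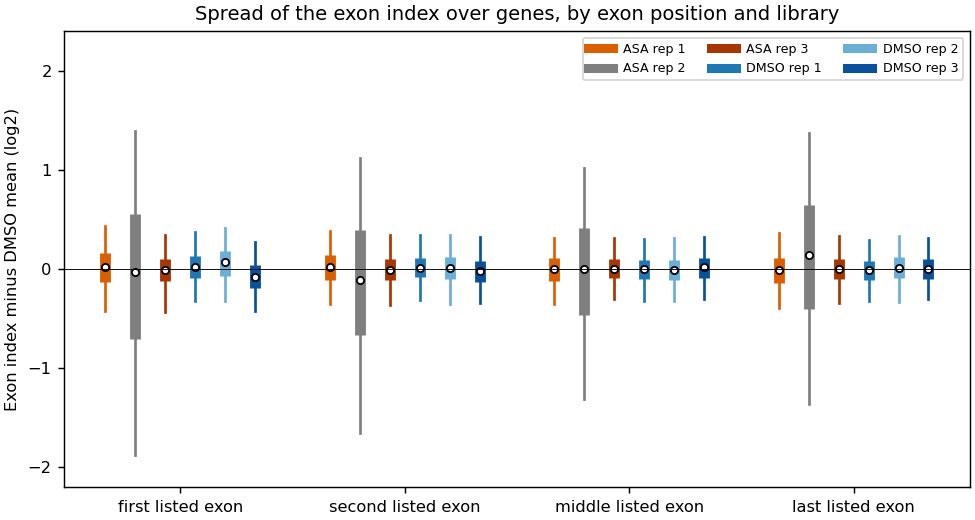
Distribution over genes of the exon index minus the DMSO mean (log2) in each library, for the first, second, middle and last listed exon; circles are medians, thick bars the quartiles and thin lines the 5th to 95th percentile, and each DMSO library is set against the other 2. ASA replicate 2 is wide at all 4 positions, with 28.8% of its first exons more than 1 log2 unit away, while the other 5 libraries have 1.34% or fewer.

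The median index over all genes was 0.012 lower in ASA than in DMSO libraries (-0.012), a difference within the spread between libraries (exact permutation test over 6 libraries, two-sided, p = 0.8, where the smallest possible p is 0.1). With all 6 libraries, limma with Benjamini-Hochberg adjustment called 0 of 7223 first exons (0% called), with a smallest adjusted p of 0.762, and 205 had an unadjusted p under 0.05. In the exon-level test of limma's diffSplice on the same 6 libraries 7 first exons passed: Abcb4 was higher, and Dctn1, Arhgef2, Vgll4, Nelfcd, Unc93b1 and Shkbp1 were lower relative to their genes. These 7 were named because of that count. Nelfcd (diffSplice adjusted p = 0.195) and Shkbp1 did not pass in the same test once ASA replicate 2 was left out, and the others did. The index of Shkbp1 was -2.01, -4.54 and -1.64 with ASA and -1.31, -1.16 and -1.74 with DMSO, which overlapped.

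Without ASA replicate 2, 37 first exons differed from the rest of their gene at an adjusted p under 0.05 (0.512% of those tested), 16 of them higher (0.222%) and 21 lower (0.291%) with aspirin. When all 6 libraries were kept and weighted by their quality, 52 passed (0.720%), 19 higher (0.263%) and 33 lower (0.457%), and ASA replicate 2 received a weight of 0.0541 against 1.4 to 3.19 for the others. The 35 first exons called both ways made up 94.6% of the first set and 67.3% of the second. The count of 37 rested on few libraries: it became 3 when DMSO replicate 3 was left out as well and 58 when ASA replicate 1 was, and it was 5 without a variance trend in the model. Slc3a2 alone passed in all 18 alternative settings tried on the 5 libraries.

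First exons were not called at a rate far from that of other exons. By the same procedure without ASA replicate 2, 31 of 7338 second exons (0.422%), 21 of 7407 middle exons (0.284%) and 57 of 7426 last exons (0.768%) differed from the rest of their gene, and the differences between positions were not tested. With all 6 libraries 2 second exons (0.0273%), 0 middle exons and 1 last exon (0.0135%) were called, and with library weights 39 (0.531%), 18 (0.243%) and 56 (0.754%). Changes of level were far more frequent: without ASA replicate 2, 1350 first exons (18.7%) and the other exons of 1611 genes (22.3%) changed. First exons were higher in 821 (11.4%) and lower in 529 (7.32%), and the others higher in 1038 (14.4%) and lower in 573 (7.93%). With all 6 libraries these counts were 127 (1.76%) and 677 (9.37%), with first exons higher in 89 (1.23%) and lower in 38 (0.526%), and the others higher in 395 (5.47%) and lower in 282 (3.9%). Without ASA replicate 2, only Hdhd2, Dctn1 and Vgll4 of all 7223 genes had a first exon and other exons that both passed and in opposite directions. None of these genes passed at either level with all 6 libraries.

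**Figure D2:**
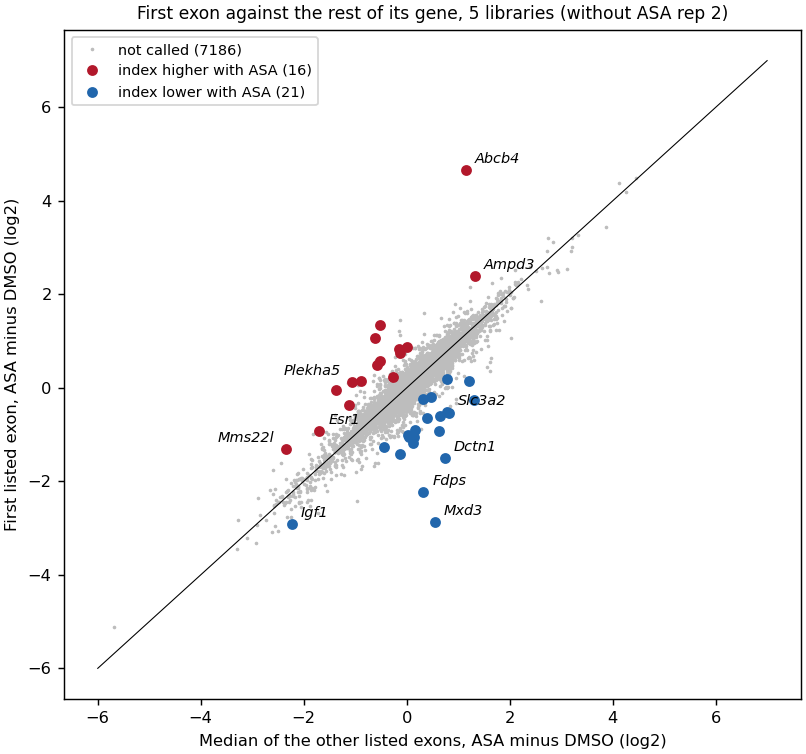
Change of the first listed exon (vertical, ASA minus DMSO, log2) against the change of the median other exon (horizontal, same scale) for 7223 genes in 5 libraries, ASA replicate 2 left out; the line marks equal change. Most genes lie along the line, and the 37 called genes (16 higher in red, 21 lower in blue) lie off it by 0.51 to 3.51 log2 units.

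The 37 differences had a median size of 1.07 log2 units, and 26 were over 1, a size reached by 48 (0.664%) of all tested first exons. Many were exons that already stood apart in control cells: 25 of the 37 (67.6%) had a DMSO index further than 1 from 0, against 16.9% of all tested. In ASA replicate 2 the index lay within the range of the DMSO libraries in 3 of the 37 and beyond it on the side opposite to the call in 5 (Phf14, Bcat1, Igf1, Kars and Ampd3). The same DMSO libraries enter both comparisons, and of all 7223 first exons 876 lay within the range and 2946 on the opposite side, so nothing is read from these counts. The level of the first exon passed in 18 of the 37, and in 12 of these the level of the other exons did not. In 10 only the level of the other exons passed, and in 9 neither level did, so a called index often rested on the rest of the gene. A leading set was counted as the run of exons from the 5′ end whose difference was nearer to that of the first exon than to the median of the others, with no test of its own. It held the first exon alone in 19 of the 37 and from 2 to 11 exons in 18. Over all tested genes it held the first exon alone in 59.0%.

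Dctn1 encodes the largest subunit of dynactin, which binds microtubules through its N-terminal domain. Its first listed exon (33 bases, numbered 1, chr4:114877032-114877064, plus strand, Rnor_6.0) had 14.5, 0.911 and 11.8 RPKM in ASA replicates 1, 2 and 3 and 39.8, 34.7 and 37.2 in DMSO replicates 1, 2 and 3. The gene has 28 listed exons, and the median of the others went the other way, at 186, 130 and 169 RPKM with ASA and 115, 99.9 and 104 with DMSO. All 3 ASA libraries were below all DMSO libraries at the first exon and above them at the rest. Without ASA replicate 2 the index fell by 2.24 ± 0.23 (SE; limma adjusted p = 0.000416), the first exon fell by 1.5 (adjusted p = 0.00714) and the others rose by 0.74 (adjusted p = 0.0153). The exon held between 2 and 124 reads in a library, and with all 6 libraries the index difference was -3.33 ± 0.86 (adjusted p = 0.762).

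Slc3a2 encodes 4F2hc, the heavy chain that carries the amino acid transporter LAT1 to the cell surface and a known target of the integrated stress response. Its first exon (112 bases, numbered 1, chr1:224920805-224920916, minus strand) had 19.2, 36.3 and 21.8 RPKM with ASA and 25.8, 38.6 and 26.0 with DMSO, whereas the median of the other exons was 299, 287 and 361 against 163, 241 and 166. The groups overlapped at the first exon and did not overlap at the rest. Without ASA replicate 2 the index fell by 1.34 ± 0.13 (adjusted p = 0.000416). The other exons rose by 0.81 (adjusted p = 0.0352) and the first exon had a difference of -0.53 that did not pass (adjusted p = 0.151). All 9 later exons had differences between 0.68 and 0.92, so none was near that of the first.

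Vgll4, a cofactor of the TEAD transcription factors, had the same form with 5 listed exons. Its first exon (chr4:146838966-146839047, minus strand) had 6.75, 10.3 and 9.49 RPKM with ASA and 13, 16.9 and 16.3 with DMSO, and the others had 39.8, 49.4 and 44.1 against 29.2, 24.9 and 27.1. The groups were apart at both, in opposite directions and with ASA replicate 2 on the side of its group. The index fell by 1.56 ± 0.24 (adjusted p = 0.0109) without ASA replicate 2 and by 1.52 ± 0.24 with all 6 libraries (adjusted p = 0.762, unadjusted p = 0.000520). Arhgef2, which encodes the microtubule-associated exchange factor GEF-H1, had a first listed exon of 40 bases (numbered 4, chr2:187987949-187987988, plus strand) with 16.0, 13.2 and 27.8 RPKM with ASA and 18.5, 31.9 and 27.7 with DMSO. The groups overlapped there, while the other exons stood at 265, 238 and 337 with ASA against 116, 130 and 116. Its index fell by 1.58 ± 0.26 (adjusted p = 0.0180) and the other exons rose by 1.31 (adjusted p = 0.00585).

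In Bcat1, Phf14, Cdhr2 and Hnrnpa3 the first exon fell and the rest had differences between -0.13 and 0.13 that did not pass. Bcat1, the cytosolic branched-chain aminotransferase, had 65.2, 75.9 and 53.1 RPKM at its first listed exon (numbered 2, chr4:179306958-179306999, minus strand) with ASA and 130, 125 and 101 with DMSO, with no overlap. Its index fell by 1.02 ± 0.13 (adjusted p = 0.00259), and its 10 later exons had differences between -0.02 and 0.07. In ASA replicate 2 the other exons were also low, at 420 RPKM against 641 to 834 elsewhere, and the index there (-2.47) lay above the DMSO libraries (-2.73 to -2.51). Phf14, a chromatin reader with PHD fingers, had 88.9, 69.4 and 61.8 RPKM with ASA and 155, 150 and 156 with DMSO at its first exon (chr4:38240728-38240944, plus strand). The index again differed in ASA replicate 2 (1.83) from ASA replicates 1 and 3 (0.93 and 0.46), against 1.77 to 1.81 with DMSO. The index of Phf14 fell by 1.10 ± 0.11 without ASA replicate 2 (adjusted p = 0.000416). Hnrnpa3 and Phf14 were marked by a first exon far above the rest in control cells or by divided reads: the DMSO index of Hnrnpa3, an RNA-binding protein gene, was 4.78 ± 0.36 (SD, n = 3), and Phf14 had values that were not whole reads in 2 libraries. How reads that fit more than 1 locus were counted is not given in the sources used here, so such genes are uncertain. In 4 of the 37 the first exon lay in the span of another listed gene, against 62 of all 7223. These were Phf14 (Ndufa4) and Aldh3b1 (Unc93b1) on the other strand. On the same strand they were Pcbp2 (Prr13) and LOC102549726 (RT1-CE4 and RT1-CE7). Whether these exons hold reads of those genes was not tested.

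In Kars, Dab2ip and Aldh3b1 the first exon rose and the rest did not pass. The index of Aldh3b1, an aldehyde dehydrogenase gene, rose by 0.99 ± 0.19 (adjusted p = 0.0403), and its values were not whole reads in 5 libraries. Kars encodes lysyl-tRNA synthetase, whose cytosolic and mitochondrial forms come from 1 gene through alternative splicing near the 5′ end. Its first exon (146 bases, chr19:44228283-44228428, minus strand) had 114, 51.7 and 152 RPKM with ASA and 73.7, 90.6 and 71.6 with DMSO, and the other exons stood at 196, 168 and 181 against 206, 196 and 214. ASA replicates 1 and 3 were above all DMSO libraries and ASA replicate 2 below them. Without ASA replicate 2 the first exon rose by 0.75 (adjusted p = 0.0346) and the index by 0.87 ± 0.16 (adjusted p = 0.0260), and with all 6 libraries the index difference was 0.48 ± 0.36 (adjusted p = 0.762). Dab2ip, a Ras GTPase-activating protein, had 69.6, 79.1 and 51.0 RPKM at its first listed exon (numbered 2, chr3:14973056-14973159, plus strand) with ASA and 34.7, 39.3 and 25.5 with DMSO, with all ASA libraries above all DMSO libraries. The others had 46.2, 31.2 and 36.0 against 45.3, 39.9 and 37.2, which overlapped. The index rose by 0.86 ± 0.15 (adjusted p = 0.0219) and by 1.13 ± 0.27 with all 6 libraries (adjusted p = 0.762). Ampd3, erythrocyte-type AMP deaminase, rose at both, by 2.39 at the first exon (adjusted p = 0.00671) and by 1.33 at the rest (adjusted p = 0.0158). In Fis1, Pcbp2 and LOC102549726 the index rose while neither the first exon nor the rest passed alone. Fis1, a mitochondrial fission protein gene, had an index of -0.41, 0.47 and 0.38 with ASA and -1.15, -0.99 and -1.13 with DMSO. These did not overlap, which the rule for named genes, given below, required. The index of Fis1 rose by 1.08 ± 0.21 (adjusted p = 0.0403). The indices of Pcbp2, an RNA-binding protein gene, and of LOC102549726 rose by 0.51 ± 0.10 (adjusted p = 0.0351) and 1.87 ± 0.24 (adjusted p = 0.00259), and in Pcbp2 ASA replicate 2 (1.84) lay within the DMSO libraries (1.83 to 1.97).

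In Ugt1a6, Olfm1 and Trim16 the rest of the gene fell and the first exon did not pass the test. The Ugt1a locus is the textbook case of alternative first exons, each with its own promoter, joined to a common set of exons that completes every UDP-glucuronosyltransferase of the family. The first listed exon of Ugt1a6 (855 bases, numbered 5 of 13, chr9:95245403-95246257, plus strand) had 3.59, 1.06 and 3.65 RPKM with ASA and 3.35, 4.54 and 3.51 with DMSO. The 4 later listed exons, which the neighbouring Ugt1a members share, had a median of 2.41, 0.673 and 1.35 RPKM with ASA and 5.53, 4.82 and 4.34 with DMSO. The groups overlapped at the first exon and did not at the common exons, which fell by 1.38 without ASA replicate 2 (adjusted p = 0.0341), and the index rose by 1.33 ± 0.23 (adjusted p = 0.0219). Ugt1a7c and Ugt1a5, the neighbours of Ugt1a6 in the RefSeq gene order, have no row under their own symbols in the table. Olfm1 encodes the secreted neuronal protein olfactomedin 1, made as long and short forms from alternative promoters. Its first exon (chr3:6774104-6774253, plus strand) had 99.3, 113 and 76.4 RPKM with ASA and 76.6, 54.7 and 57.0 with DMSO, and the others 145, 117 and 114 against 195, 203 and 178. The other exons did not overlap between groups and fell by 0.57 (adjusted p = 0.0402), and the index rose by 1.06 ± 0.13 (adjusted p = 0.00215). The later exons were not uniform without ASA replicate 2. Listed exons 2 and 3 had differences of -0.93 and -0.98, and listed exons 4 to 6 between -0.46 and -0.38.

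**Figure D3:**
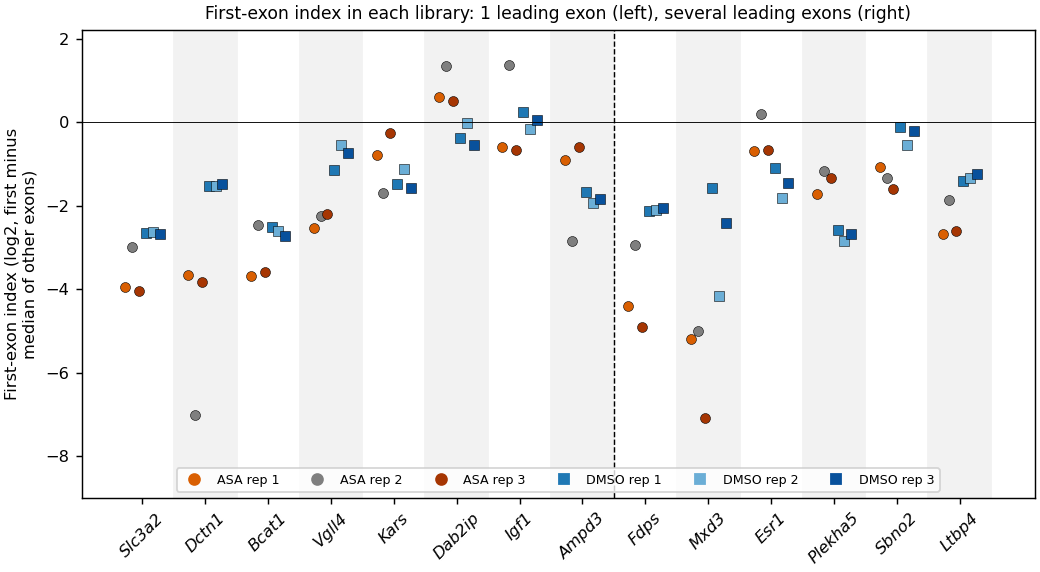
First-exon index (log2, first exon minus the median of the other exons) in each of the 6 libraries for 14 genes called without ASA replicate 2, with 8 whose leading set is the first exon alone on the left of the dashed line and 6 with several leading exons on the right; circles are ASA and squares DMSO. ASA replicate 2 (grey) lies with its group in Dctn1 and Vgll4 and on the other side of the DMSO libraries in Bcat1, Kars, Igf1 and Ampd3.

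Igf1 encodes insulin-like growth factor 1, whose transcripts are known to start in alternative leader exons. The whole gene fell: the other exons had 63.7, 77.0 and 55.7 RPKM with ASA and 255, 345 and 251 with DMSO. Its first listed exon (63 bases, numbered 1, chr7:28412478-28412540, plus strand) had 41.9, 199 and 34.9 RPKM with ASA against 301, 309 and 261 with DMSO. ASA replicates 1 and 3 were far below the DMSO libraries at the first exon and ASA replicate 2 was nearer to them. Without ASA replicate 2 the first exon fell by 2.92 (adjusted p = 0.000988), the others by 2.23 (adjusted p = 0.00530) and the index by 0.69 ± 0.12 (adjusted p = 0.0197). With all 6 libraries the index difference was -0.02 ± 0.54 (adjusted p = 0.990). The exon numbered 2 is not listed. The exon numbered 5 (52 bases) had 11.5, 6.07 and 7.48 RPKM with ASA and 113, 88.4 and 87.6 with DMSO. Its difference without ASA replicate 2 was -3.35, so a larger fall than that of the gene median was not particular to the first exon.

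Esr1 encodes estrogen receptor alpha. In rat pituitary cells the gene is also known to give a truncated product, TERP-1, whose transcript starts at a promoter inside the gene and holds only the later coding exons. The listed exons of Esr1 formed a leading and a trailing set of 4 each. The first listed exon (538 bases, numbered 2, chr1:41325460-41325997, plus strand) had 33, 54.1 and 25.6 RPKM with ASA and 54.6, 58.8 and 51.9 with DMSO, which did not overlap without ASA replicate 2. At the fifth the values were 59.2, 47.5 and 40.5 with ASA and 148, 255 and 144 with DMSO. Without ASA replicate 2 the first 4 exons had differences between -1.10 and -0.92 and the last 4 between -1.84 and -1.73, so both sets were lower with ASA and the trailing set more so. The index rose by 0.78 ± 0.15 (adjusted p = 0.0403), while the first exon fell by 0.92 (adjusted p = 0.0182) and the median of the others by 1.70 (adjusted p = 0.0102). With library weights the index had an adjusted p of 0.0786, and with all 6 libraries a difference of 1.06 ± 0.30 (adjusted p = 0.762). In the trailing set DMSO replicate 2 was at 209 to 279 RPKM and the other DMSO libraries at 117 to 169. The table does not identify the transcripts behind either set.

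Ltbp4, Plekha5, Zdhhc1 and Sbno2 also had several leading exons whose differences were unlike those of the later ones, although the level of the first exon did not pass in any of the 4. Ltbp4 encodes a latent TGF-beta binding protein with long and short forms from separate promoters. Its first exon (chr1:84149942-84150084, minus strand) had 6.61, 10.7 and 6.48 RPKM with ASA and 7.99, 11.1 and 9.43 with DMSO, and the others 42.9, 39.4 and 40.0 against 21.5, 28.2 and 22.6. The groups overlapped at the first exon and were apart at the rest. The first 4 of 33 exons had differences between -0.94 and -0.51 and all later ones between 0.52 and 1.02, and the index fell by 1.31 ± 0.19 (adjusted p = 0.00767). In Plekha5, a phosphoinositide-binding protein gene, the first 3 of 30 exons had differences between -0.04 and 0.13. The gene's median over all exons after the first had a difference of -1.05 (adjusted p = 0.00912). Its first exon (chr4:174605554-174605645, plus strand) had 22.3, 22.9 and 28.7 RPKM with ASA and 21.9, 24.2 and 23.6 with DMSO, and the rest 73.5, 51.6 and 72.3 against 132, 173 and 152. The first exon therefore overlapped between groups while the rest did not, and the index rose by 1.18 ± 0.17 (adjusted p = 0.00765).

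Zdhhc1 encodes a protein palmitoyltransferase. Its first exon (chr19:37440227-37440469, minus strand) was low, at 10.9, 15.6 and 11.7 RPKM with ASA and 3.66, 7.06 and 5.82 with DMSO, against 68.0, 101 and 53.4 and 75.8, 121 and 86.3 at the rest. All ASA libraries were above all DMSO libraries at the first exon, whose difference of 1.08 did not pass (adjusted p = 0.0532), and the index rose by 1.69 ± 0.19 without ASA replicate 2 (adjusted p = 0.000777). With all 6 libraries Zdhhc1 had the smallest unadjusted p of the 24 first exons that the rule for named genes took, with a difference of 1.60 ± 0.22 (limma adjusted p = 0.762). In Sbno2, a transcriptional coregulator gene, the rest rose by 1.20 (adjusted p = 0.00792), the first exon had a difference of 0.15 (adjusted p = 0.716), and the index fell by 1.05 ± 0.20 (adjusted p = 0.0349). Over all 6 libraries its index was -1.08, -1.33 and -1.60 with ASA and -0.12, -0.55 and -0.20 with DMSO. These did not overlap, which the rule for named genes required.

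**Figure D4:**
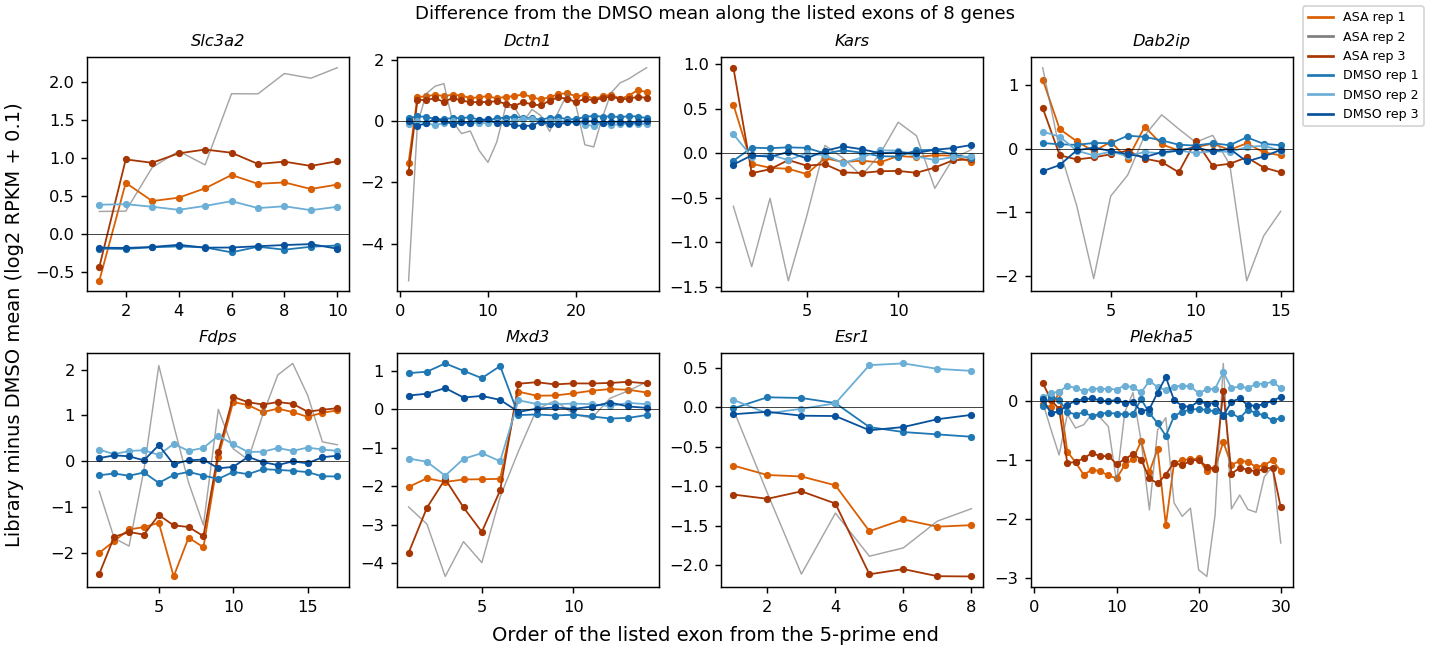
Each library minus the DMSO mean (log2 of RPKM + 0.1) along the listed exons of 8 genes in order from the 5′ end; points and lines are libraries, and ASA replicate 2 is the thin grey line. In the upper row the first exon is unlike all later ones, and in the lower row the leading exons that differ from the later ones number 8 (Fdps), 6 (Mxd3), 4 (Esr1) and 3 (Plekha5, where the leading exons stay near 0 and the later ones are lower).

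Some leading sets lay in gene models that border or repeat a neighbouring gene. Fdps encodes farnesyl diphosphate synthase of the cholesterol pathway, and its first exon (chr2:188412151-188412329, minus strand) had 2.85, 7.39 and 2.05 RPKM with ASA and 9.46, 14 and 12.3 with DMSO, with no overlap. The first 8 of its 17 listed exons had differences between -2.24 and -1.27, the ninth 0.14 and the tenth 1.34, and the index fell by 2.56 ± 0.20 without ASA replicate 2 (adjusted p = 3.27e-05). In the RefSeq gene order Rusc1 lies next to Fdps and has no row of its own in the table. Gstm7, a glutathione S-transferase gene, showed the arrangement directly: the lengths of its listed exons 1 to 7 (36, 76, 82, 101, 96, 111 and 87 bases) recur in the same order in exons 8 to 14. The first set had differences between -1.86 and -1.05 and the second between 0.33 and 1.36. Its first exon (chr2:210782711-210782746, minus strand) had 118, 151 and 103 RPKM with ASA and 225, 256 and 205 with DMSO, and the index fell by 1.20 ± 0.19 (adjusted p = 0.0132).

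Hdhd2 and Abcb4 also had leading sets of 2 and 11 exons. Hdhd2, a hydrolase-domain gene, had 2 leading exons far above the rest, with 176, 114 and 157 RPKM at the first (chr18:73226630-73226720, plus strand) with ASA and 249, 259 and 247 with DMSO, against 34.9, 11.2 and 26.3 and 19.3, 18.6 and 19.8 at the others. The first exon did not overlap between groups. Its index fell by 1.25 ± 0.10 (adjusted p = 3.27e-05), the first exon fell by 0.60 (adjusted p = 0.0291) and the others rose by 0.65 (adjusted p = 0.0417). Ier3ip1 and Katnal2, its neighbours in RefSeq, have no row in the table. Abcb4, a phospholipid transporter gene, had 22 listed of 81 numbered exons. Its first listed exon (numbered 3, chr4:22410991-22411138, minus strand) rose from 0.286, 2.30 and 1.84 RPKM with DMSO to 23.6, 8.64 and 39.8 with ASA, with no overlap. The first 11 exons had differences between 4.06 and 4.82 and the other 11 between -1.80 and -0.20, and Abcb1b, a neighbour in RefSeq, has no row in the table. Its index rose by 3.51 ± 0.53 (adjusted p = 0.00960), the largest of the 37 by size, on 4 to 515 reads a library. For Fdps, Gstm7, Hdhd2 and Abcb4 an internal start and a gene model that joins neighbouring genes cannot be told apart from the table, so their index may compare 2 genes.

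Mpdu1, Atp5f1c, Ppip5k1, Uimc1 and Zmym3 fell in index by 0.57 to 1.07 with leading sets of between 3 and 7 exons. The level of the first exon passed in Atp5f1c alone of these 5, where it fell by 0.91 (adjusted p = 0.0130), and the other exons passed in Zmym3 alone, where they rose by 0.78 (adjusted p = 0.0402). Beside Mpdu1 in the RefSeq order lies Cd68, a macrophage and lysosome marker, whose RPKM was 28.9, 210 and 69.4 with ASA and 1.9, 3 and 2.54 with DMSO. The later exons of Mpdu1 had 56.9, 196 and 75.8 RPKM with ASA and 48.4, 46.6 and 46.8 with DMSO, highest in the same library as Cd68. The first exon of Mpdu1 was also highest in that library, at 29.8, 106 and 45.7 with ASA and 40.1, 46.0 and 40.9 with DMSO. Whether Mpdu1 and Cd68 share reads was not tested. The macrophage genes Csf1r, Ptprc and Adgre1 have no row here, and neither have the fibroblast genes Col1a1, Col1a2 and Pdgfra. The fibroblast marker Dcn, the only one listed, was at 2113 to 3207 RPKM with ASA and 1067 to 1108 with DMSO. In bulk RNA a change in the cells present and a change per cell cannot be told apart.

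Mxd3, Mms22l, Zfp367 and Haus6 were also among the 37, and in each of these DMSO replicate 2 was below the other DMSO libraries at the first exon. Mxd3, a repressor of the MYC network, had 5.59, 3.87 and 1.64 RPKM at its first exon (chr17:9830399-9830468, plus strand) with ASA and 44.0, 9.39 and 29.4 with DMSO, so DMSO replicate 2 lay between the other libraries. The first 6 of its 14 exons had differences between -2.88 and -1.85 and the other 8 between 0.50 and 0.60, and the index fell by 3.42 ± 0.62 (adjusted p = 0.0264). Mms22l, a factor for replication fork repair, had 10.9, 12.5 and 7.75 RPKM with ASA and 44.5, 9.55 and 28.8 with DMSO at its first exon, which overlapped. The index did not overlap, which the rule for named genes required. It rose by 1.03 ± 0.16 (adjusted p = 0.0109). Zfp367, an S-phase gene, had 5.74, 4.28 and 4.90 against 25.3, 5.71 and 14.9 RPKM, and its index fell by 0.82 ± 0.15 (adjusted p = 0.0328). Haus6, a subunit of augmin, rose in index by 1.02 ± 0.18 (adjusted p = 0.0252), with neither its first nor its other exons passing.

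In most of the 13 gene lists the median difference of the first exons lay near that of the other exons without ASA replicate 2. The counts below are read against the shares of all tested genes in that fit, 11.4% higher and 7.32% lower for first exons and 14.4% and 7.93% for the others. The G2/M and mitosis list (31 tested) had a median difference of -2.19 at first exons and -2.13 at the other exons without ASA replicate 2, with 25 and 26 of 31 lower, and 0 first exons were called apart from their gene (3 at an unadjusted p under 0.05). Ccna2, the cyclin of S phase and mitosis, fell by 2.36 at its first exon (adjusted p = 0.0247) and its other exons fell by 2.88 (adjusted p = 0.0222). The G1/S and DNA replication list (35 tested) had -1.22 and -1.29, with 14 and 10 lower. Fewer first exons than other exons passed with all 6 libraries: 3 against 25 were lower in the G2/M list and 2 against 10 in the G1/S list, where 0.526% and 3.9% of all tested were. Mcm7, a subunit of the replicative helicase, had the smallest p of that list, with an index difference of -0.96 ± 0.23 that did not pass (adjusted p = 0.114; 0.0364 with library weights). Over all tested first exons the medians were 0.07 and 0.07.

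On the 5 libraries without ASA replicate 2 the cholesterol biosynthesis list (24 tested) had medians of -0.87 at first exons and -0.82 at the rest, with 13 and 14 lower and 3 and 2 higher, and Fdps was the 1 first exon called. Glycolysis (14 tested) had -0.87 and -0.84 with 7 and 7 lower, and the proteasome (29 tested) -0.61 and -0.62 with 15 and 13 lower. Autophagy and lysosome genes (32 tested) had 0.40 and 0.48 with 12 and 14 higher. The p53 targets (14 tested) had 0.42 and 0.44, with 3 and 3 of 14 higher, not far from the 11.4% and 14.4% of all tested, and the integrated stress response (22 tested) 0.27 and 0.40, with 5 and 7 higher and Slc3a2 the 1 first exon called. When all 6 libraries were kept, first and other exons were lower in 4 and 7 cholesterol genes, 1 and 5 glycolysis genes and 0 and 3 proteasome genes, and higher in 4 and 8 autophagy genes, 0 and 3 p53 targets and 0 and 4 genes of the stress response. In the proteasome, glycolysis, autophagy and p53 lists 0 first exons were called by limma, with 2, 2, 3 and 0 at an unadjusted p under 0.05 in either direction.

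**Figure D5:**
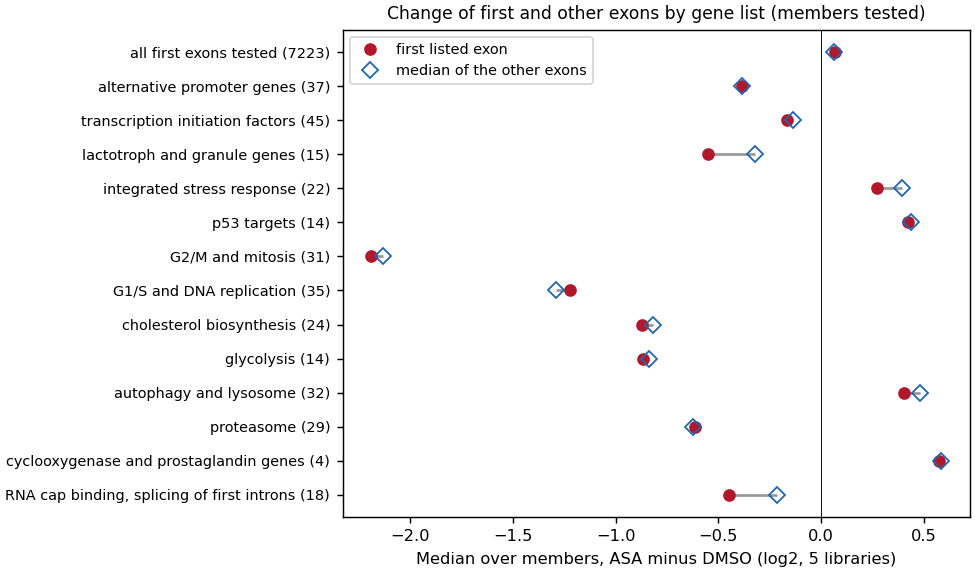
Median ASA minus DMSO difference (log2, 5 libraries without ASA replicate 2) of the first listed exon (red circles) and of the median other exon (blue diamonds) over the tested members of 13 gene lists and over all 7223 first exons; numbers in brackets are members tested. The pairs lie close together in most lists, from -2.19 and -2.13 in mitosis genes to 0.40 and 0.48 in autophagy genes.

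Of 80 genes listed as having alternative promoters 37 were tested, and 1 index was higher (Esr1) and 1 lower (Igf1), against 0.512% of all tested in either direction, with 7 at an unadjusted p under 0.05 (18.9% against 8.20% of all tested) and medians of -0.38 at first exons and -0.39 at the rest. The list was drawn up with earlier results known, so these shares support nothing about it. With library weights 2 of them were lower, Igf1 and Mcm7, and Esr1 did not pass. Of 66 transcription initiation and early elongation factors 45 were tested, with medians of -0.17 and -0.14, 0 called and 1 at an unadjusted p under 0.05, Nelfcd, a subunit of the pausing factor NELF. The other exons of these factors were lower in 6 genes and higher in 1 without ASA replicate 2, and lower in 1 with all 6 libraries. The cap-binding and splicing factors (18 tested) had 0 calls, and 6 were at an unadjusted p under 0.05 (33.3%), with medians of -0.45 at first exons and -0.21 at the rest. Hnrnpa1, a splicing regulator, came nearest with an index difference of -0.70 ± 0.15 (adjusted p = 0.0644; 0.0465 with library weights).

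The cyclooxygenase and prostaglandin list (4 tested) had medians of 0.58 at first exons and 0.58 at the rest, with 0 calls and 1 at an unadjusted p under 0.05. Among lactotroph and granule genes (15 tested), with medians of -0.55 and -0.32, Esr1 was the 1 call. Prl, the prolactin gene, had an index of 1.39, 1.67 and 1.21 with ASA and 1.26, 1.29 and 1.15 with DMSO, which overlapped, and a difference of 0.07 ± 0.07 without ASA replicate 2 (95% interval -0.10 to 0.23, adjusted p = 0.896). Pou1f1, the lactotroph transcription factor, had 0.31, 2.54 and 0.27 with ASA and 0.12, 0.20 and 0.18 with DMSO, so the index was high in ASA replicate 2 alone, and the difference was 0.12 ± 0.07 without it (95% interval -0.02 to 0.27, adjusted p = 0.704). Ptgs1, a cyclooxygenase that aspirin acetylates, rose as a whole gene without ASA replicate 2. The rise was 1.04 at the first listed exon (adjusted p = 0.0386) and 1.04 at the rest (adjusted p = 0.0352). With all 6 libraries the first exon of Ptgs1 did not pass (limma adjusted p = 0.0904) and the rest did (adjusted p = 0.0472). Without ASA replicate 2 its index difference was -0.0033 within the 95% interval -0.23 to 0.22 (adjusted p = 0.996). Dnmt1, with oocyte and somatic first exons, and Tpm1, with alternative 5′ exons, had differences of -0.06 ± 0.13 and -0.08 ± 0.13 (adjusted p = 0.950 and 0.933). The first listed exon is numbered 5 of 16 in Tpm1 and 2 in Ptgs1, so their earlier numbered exons were not measured.

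There were 5 first exons of the 24 named by the rule for all 6 libraries that were not called without ASA replicate 2 either. That rule took only indices without overlap between the groups, so the lack of overlap below was set by the choice. Tfe3, a lysosomal transcription factor, had an index of -2.28, -2.28 and -2.39 with ASA and -1.32, -1.52 and -1.83 with DMSO, which did not overlap, and a difference of -0.76 ± 0.20 with all 6 libraries (limma adjusted p = 0.762; 0.0408 with library weights). Clcn3, a chloride-proton exchanger of endosomes, had -2.02, -2.28 and -1.95 against -1.42, -1.38 and -1.45, also apart, and a difference of -0.66 ± 0.17 (adjusted p = 0.762). The others were Cym (-0.93 ± 0.21), Gmfg (-0.88 ± 0.24) and Rnls (-1.18 ± 0.29). Indices that did not overlap between the groups of 3 were seen in 910 of all 7223 first exons (12.6%), and in 1680 (23.3%) without ASA replicate 2.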

How the data were processed

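Polyadenylated RNA libraries were directional, per the labels' protocols. The tool names edgeR 3.26.8, Bowtie2, TopHat2 2.1.0, Trim Galore 0.4.1 and cutadapt 1.14 come from the submitters' processing notes, as does the build Rnor_6.0. Which program counted reads, whether strand was used and which annotation served is not given in the sources used here, so reads of overlapping or near-identical genes are uncertain. The authors deposited log2 RPKM values for single exons, and the other deposited columns give position and length. Each of the 6 value columns was matched to its sample through the title.

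The log was undone and the constant added by the authors was removed. Of the values 95.7% to 96.8% were then whole reads within 0.02. The index was computed on log2(RPKM + 0.1), which understates changes of low exons, and fitted with limma 3.58.1 in R 4.3.3 (lmFit and eBayes with a trend on the mean level of the first exon, two-sided, 6 libraries, no covariates), with Benjamini-Hochberg adjustment over all genes tested at 0.05. Other positions were fitted likewise with a trend on the mean level of the exon at that position, and levels with a trend on their own mean. The fits were also run on simulated data with known changes and independent normal noise, and nothing above rests on that run.

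The members, lists and fixed genes were chosen with earlier results of these data known. The rule for named genes took the 24 smallest p-values among indices without overlap, a mean of at least 1 read per 1000000 and a symbol that is no placeholder, then list members and Prl, Pou1f1, Dnmt1, Tpm1, Ptgs1 and Bcl2l1, the last with fewer than 5 rows. The 18 other genes called without ASA replicate 2, and the genes named for diffSplice, were chosen after their values were seen. RefSeq names and gene order come from GRCr8, whose coordinates were not used. Alternatives changed the pseudocount, filter, comparator exons, variance model and libraries.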

Additional observations from a re-analysis of the deposited data

How the results depend on the processing

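The number of first exons called apart from their gene was 0 with all 6 libraries, and also with another pseudocount, the deposited values as they stand, other filters, comparators and variance models. It was 52 with library weights, 7 with diffSplice and 30 with both libraries numbered 2 left out, and leaving out 1 library gave 0 to 37. The cause was not tested. On the 5 libraries without ASA replicate 2 the count of 37 became 20 at 2 reads per 1000000, 24 with 10 or more exons, 14 against the second exon alone and 5 without a variance trend, and a further library left out gave 3 to 58. Fewer first exons are tested in the first 2 of these. Counts for level ranged from 0 to 1350 (first exons) and 0 to 1611 (other exons) with 1 library left out, and were 3191 and 5922 with library weights, whose estimate stopped before convergence. Second exons ranged from 0 to 31, middle exons from 0 to 21 and last exons from 0 to 57, with 39, 18 and 56 under library weights. The median index difference turned to 0.0228 against the second exon and ranged from -0.0356 to 0.00412 with 1 library left out.

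Set against the second exon alone, differences turned in sign in several genes: without ASA replicate 2 to 0.0177 for Hdhd2, -0.333 for Zdhhc1, 0.421 for Ltbp4, -0.163 for Abcb4, 0.0963 for Gstm7 (0.00267 against summed exons), 0.0220 for Uimc1 and 0.0580 for Zmym3. With all 6 libraries they turned to -0.280 for Zdhhc1, 0.449 for Ppip5k1, 0.380 for Ltbp4, 0.104 for Gstm7, 0.389 for Sbno2, 0.179 for Uimc1, 0.0208 for Rnls, -0.0470 for Pou1f1, 0.265 for Tpm1 and -0.128 for Ptgs1. Tpm1 also turned to 0.0536 with summed exons, 0.0786 with internal exons, and ranged from -0.0762 to 0.112 with 1 library left out. Dnmt1 turned to -0.0479 with library weights and -0.0127 without both libraries numbered 2. With 1 library left out Dnmt1 ranged from -0.0642 (without ASA replicate 2) to 0.364 and Ptgs1 from -0.00333 (without ASA replicate 2) to 0.443. Leaving out first exons that overlap another row changed nothing, since there are none. No paired analysis was possible because the labels carry no replicate numbers and the numbers here follow deposition order. Depth limits the precision: the median SD of the index between DMSO libraries was 0.240 under 100 reads and 0.0806 at 1000 or more.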
